A study of Mus musculus with 4 samples.

Results

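The genes described here are 8 enzymes and carriers of triglyceride synthesis, Gpam, Agpat2, Lpin1, Dgat1, Dgat2, Pck1, Gpd1 and Aqp7, out of 22913 genes listed in each library. The rule names them, as enzymes of glycerolipid synthesis and glyceroneogenesis with a glycerol channel, and uses no measured value, although the set was drawn up with earlier results of these data known. Each was found in the files under its Ensembl identifier and had a value above 0 in all 4 libraries. Positions below are on GRCm38. RNA sequencing gave 1 library for each of 4 groups of C57BL/6 mice: dermal white adipose tissue (dWAT) of old mice in telogen (OTD), of young mice in telogen (YTD), of old mice in anagen (OAD) and of young mice in anagen (YAD). By the titles and the protocol, old mice were aged 18 months and young mice 2 months, but the age field of YTD reads 18 months and that of OAD reads 2 months, and the titles were followed here. Telogen is the resting phase and anagen the growth phase of the hair cycle, and anagen was induced by depilation. dWAT was microdissected from skin and was taken from several mice per group. The methods do not state how the mice were combined into a library. Values are FPKM, the fragments of a gene per kilobase of its length and per unit of sequencing depth, so that genes can be compared per length. With 1 library per group there is no spread between replicates and no test, so every comparison below is between 2 libraries, and each library enters both an age and a phase comparison. Depth was roughly 18700000 to 24100000 fragments, estimated from the lowest FPKM values, and the intervals given for folds are 95% exact intervals from these estimates, which cover counting error only.

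A triglyceride is built by adding fatty acids stepwise to glycerol 3-phosphate. Glycerol 3-phosphate comes from glucose, from pyruvate through glyceroneogenesis, in which PEPCK (Pck1) takes part, or from glycerol. GPD1 catalyses the last step from both glucose and pyruvate. GPAT enzymes add the first acyl chain, AGPAT enzymes the second, lipins remove the phosphate, and DGAT enzymes add the last acyl chain. White adipocytes run this pathway at a high rate, and the dermal fat layer grows and shrinks with the hair cycle. The paper places fat formation and expansion of the layer in anagen and fat breakdown in telogen.

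The promoters of Pck1, Gpam and Lpin1 are shown because Gpam and Lpin1 had the most alike profiles among the 8 genes and Pck1 the most unlike that of Gpd1. RefSeq sequence of GRCm38.p6 was used, from 250 bases before to 50 bases after a transcript start, read 5′ to 3′ on the strand of the gene, and 5 of the 8 genes had an entry, with 7 windows. Capitals mark matches, on either strand, to any of 6 motifs, namely the TATA box (TATAAA), the CCAAT box, the GC box (GGGCGG), the E-box (CACGTG), the core of a cAMP response element (ACGTCA) and the nuclear receptor half-site (AGGTCA). No match overlapped another in the windows shown. The Pck1 window lies at chr2:173152823-173153122 on the plus strand, the Gpam windows at chr19:55099428-55099727 and chr19:55127189-55127488 on the minus strand, and the Lpin1 window, upstream of the gene start listed in the files, at chr12:16610917-16611216 on the minus strand.
Pck1: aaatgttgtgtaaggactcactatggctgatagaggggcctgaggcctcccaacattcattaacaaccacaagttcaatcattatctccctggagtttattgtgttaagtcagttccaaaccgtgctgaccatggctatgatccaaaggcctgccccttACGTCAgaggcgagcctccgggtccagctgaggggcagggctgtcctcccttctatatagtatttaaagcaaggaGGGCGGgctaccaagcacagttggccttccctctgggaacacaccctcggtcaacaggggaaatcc
Gpam, window at the listed gene start: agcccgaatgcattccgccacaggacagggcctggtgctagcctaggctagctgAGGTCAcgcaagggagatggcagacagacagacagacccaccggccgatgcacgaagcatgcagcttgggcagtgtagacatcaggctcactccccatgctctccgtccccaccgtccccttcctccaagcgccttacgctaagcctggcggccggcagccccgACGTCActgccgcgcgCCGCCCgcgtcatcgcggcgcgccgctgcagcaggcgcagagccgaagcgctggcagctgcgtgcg
Gpam, upstream window: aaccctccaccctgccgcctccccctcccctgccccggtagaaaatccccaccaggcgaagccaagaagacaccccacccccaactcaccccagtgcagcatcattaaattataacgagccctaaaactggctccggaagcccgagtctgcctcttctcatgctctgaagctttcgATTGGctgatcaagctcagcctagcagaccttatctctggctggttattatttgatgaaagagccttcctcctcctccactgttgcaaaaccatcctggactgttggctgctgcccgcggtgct
Lpin1: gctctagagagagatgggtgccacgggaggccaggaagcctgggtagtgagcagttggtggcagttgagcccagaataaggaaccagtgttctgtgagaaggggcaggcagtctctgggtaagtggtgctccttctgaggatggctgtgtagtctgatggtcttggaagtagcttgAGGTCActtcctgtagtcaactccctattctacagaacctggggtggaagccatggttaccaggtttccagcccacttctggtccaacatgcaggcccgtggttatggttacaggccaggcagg

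The Pck1 window held 1 core of a cAMP response element and 1 GC box. The Gpam window at the listed gene start held 1 of each of these and 1 nuclear receptor half-site, and the upstream window held 1 CCAAT box. The Lpin1 window held 1 nuclear receptor half-site. Of 32851 promoter windows of the same length, 7.51% held the cAMP response element core, 35.7% the GC box, 37.4% the CCAAT box and 16.3% the nuclear receptor half-site. The TATA box was in 13.6% and the E-box in 7.15% of them. A match is a string of letters and was not tested as a binding site. Agpat2 and Aqp7 also had entries. Dgat1, Dgat2 and Gpd1 are named only.

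Markers of other tissues were present beside those of fat, and their levels differed in both kinds of comparison. All 12 adipocyte markers were above 0 in all 4 libraries, and summed to 7977 FPKM in OTD and 6590 in YTD, and 2825 in OAD and 1986 in YAD. The 14 skeletal muscle markers summed to 72525, 113268, 17191 and 12998 in the same order, more than the adipocyte markers in each library. Ucp1, the marker of brown adipocytes, was at 0 in YTD and YAD, at 0.122 FPKM in OTD and at 0.0316 in OAD. The 10 matched hair follicle markers summed to 215 in OTD and 383 in YTD, against 15959 in OAD and 13044 in YAD. Macrophage markers summed to 548 in OTD and 276 in YTD, and 50.8 in OAD and 61.4 in YAD. Genes of the mitochondrial genome took 52.7%, 44.7%, 18.3% and 14.4% of the summed FPKM in OTD, YTD, OAD and YAD, and values therefore move with the scaling chosen. Of the genes 2-fold apart in telogen, 46.3% were higher in OTD, and 11.6% to 72.5% under other scalings. In anagen 61.5% were higher in OAD, and 17.9% to 64.3% under other scalings. Of those 2-fold apart between phases, 49.1% were higher in anagen in young mice (48.8% to 96.8% under other scalings) and 50.8% in old mice (37.8% to 97.9%). The 11.6%, 17.9%, 96.8% and 97.9% come from scaling to the adipocyte markers, which shifts every log2 difference by their median, genes near 0 included.

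**Figure D1:**
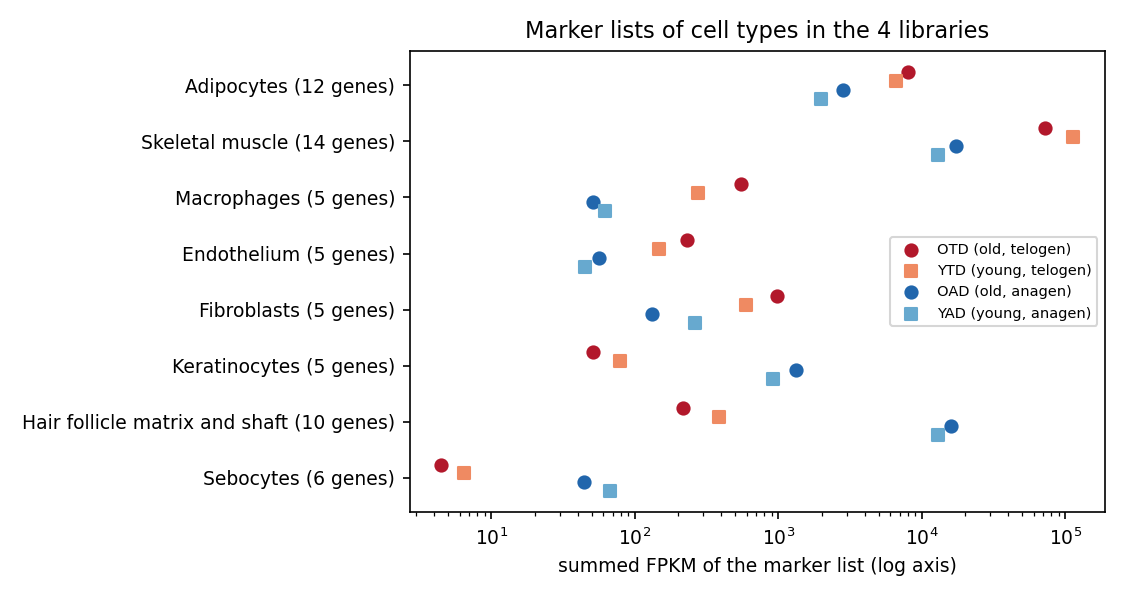
Summed FPKM of 8 marker lists (log x axis) in each of the 4 libraries, 1 point per library, with the number of genes per list. Skeletal muscle markers summed to more than adipocyte markers in all 4 libraries, and hair follicle markers were far higher in the 2 anagen libraries.

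In telogen the largest age differences among the 8 genes were in Gpd1 and Pck1, which both act in the supply of glycerol 3-phosphate. Gpd1, which makes glycerol 3-phosphate from the glycolytic intermediate dihydroxyacetone phosphate, was 2.29-fold lower in OTD than YTD, and Pck1, the cytosolic PEPCK, was 2.12-fold higher. Of the 8 genes, 2 were higher in OTD (Pck1 and Dgat1) and 6 lower, of which Aqp7 was higher when mitochondrially encoded genes were left out. The median difference of log2(FPKM + 1) was −0.36 over the 8 genes and −0.06 over the 12982 genes at 1 FPKM or above in either library. At a 2-fold difference on this scale, 1 of the 8 was higher and 1 lower, against 1.67% higher and 1.93% lower of all genes listed above 0. The adipocyte markers differed the other way from most of the 8, with 9 of 12 higher in OTD and a median log2 difference of 0.28. Each of the 14 markers of skeletal muscle had a lower FPKM in OTD, with a median of −0.63, all 5 macrophage markers were higher, with a median of 0.93, and the part of either in these differences was not tested. In bulk tissue, fewer adipocytes and less RNA per adipocyte cannot be told apart.

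In anagen the ages lay close together. The 8 genes had a median log2 difference of 0.06 between OAD and YAD, beside −0.00 over 13068 genes, and ranged from −0.29 for Agpat2 to 0.28 for Dgat1. As many were higher in OAD as lower, 4 and 4, but the sign of 5 of them (Lpin1, Dgat1, Dgat2, Pck1 and Aqp7) changed under at least 1 other scaling, while those of Gpam, Agpat2 and Gpd1 did not. None was 2-fold apart, against 0.727% of all genes higher and 0.454% lower. The adipocyte markers were higher in OAD in 12 of 12 cases, and their median log2 difference was 0.33. In TPM they were higher in 8 of 12 cases, with a median of 0.10, and with mitochondrially encoded genes left out in 10 of 12, with a median of 0.17.

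Between phases the 8 genes differed in 1 direction. All 8 had a lower FPKM in anagen than in telogen at both ages, but relative to the adipocyte markers Agpat2, Dgat1, Dgat2 and Pck1 were higher in anagen in young mice (Dgat1 also in TPM), as were Agpat2, Dgat1, Dgat2 and, by 0.04, Gpd1 in old mice. The median log2 difference was −1.65 in young and −1.40 in old mice, beside 0.03 and 0.05 over genes at 1 FPKM or above. On the 2-fold scale 5 of 8 were lower and 0 higher at each age. Scaled to the adipocyte markers 0 of 8 were 2-fold lower at either age, and in TPM 4 of 8 were in young and 2 of 8 in old mice. With mitochondrially encoded genes and skeletal muscle markers left out, 8 of 8 were 2-fold lower in old mice. Among all genes above 0 in either library, 16.7% were lower and 16.1% higher in YAD than YTD, and 15.6% lower and 16.1% higher in OAD than OTD. Among those at 1 FPKM or above, 21.4% were lower and 20.6% higher in young, and 19.9% lower and 20.6% higher in old mice. The 12 adipocyte markers were also all lower in anagen, with medians of −1.53 and −1.40, as were all 14 skeletal muscle markers, with medians of −3.05 and −2.04. The part of tissue makeup in these differences was not tested. In TPM the median over expressed genes itself was 0.76 between phases in young and 0.58 in old mice and −0.21 between ages in anagen, and the median of the 8 genes differed from it by −1.59 and −1.38 between phases. With mitochondrially encoded genes left out that median was 0.12, −0.15, 0.21 and −0.10 in telogen age, anagen age, young phase and old phase.

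**Figure D2:**
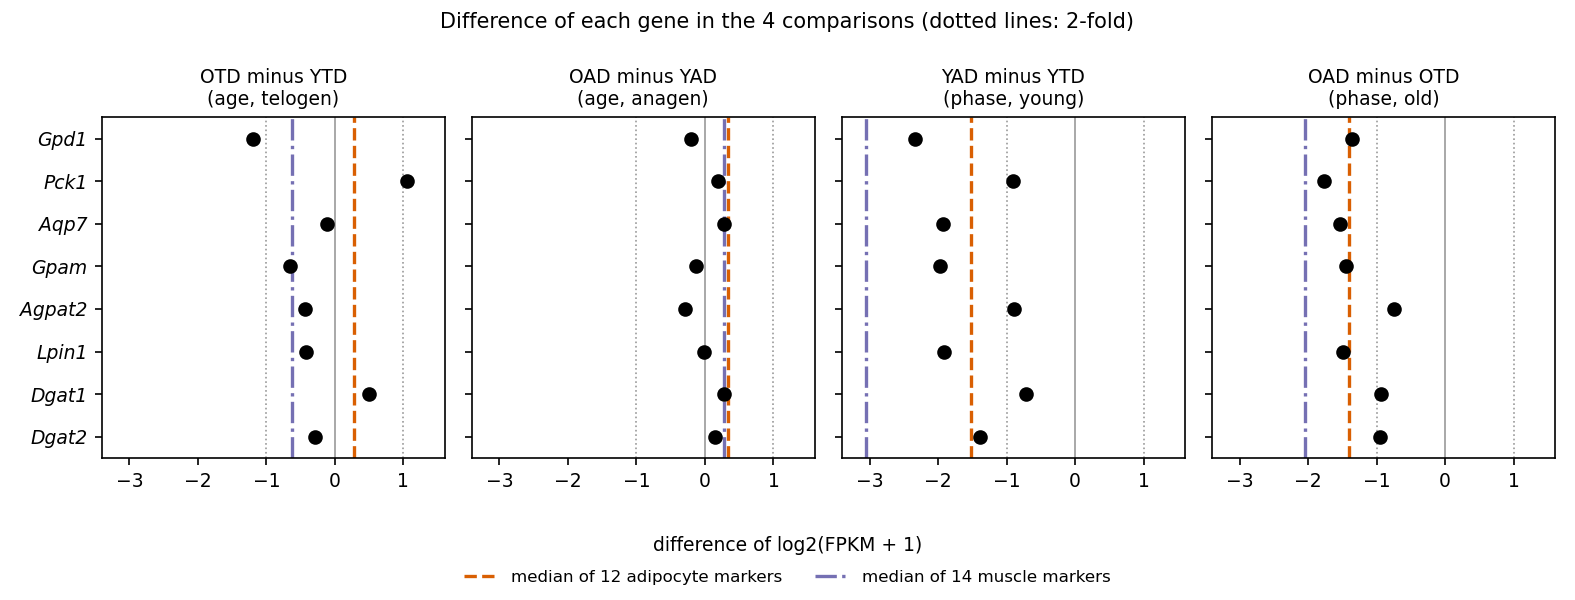
Difference of log2(FPKM + 1) of each of the 8 genes (points) in the 4 comparisons, with the medians of 12 adipocyte markers (dashed) and 14 skeletal muscle markers (dash-dotted), FPKM as deposited. Gpd1 (−1.19) and Pck1 (1.06) lie at opposite ends in telogen, and all 8 points lie below 0 in both phase panels, with 4 of them above the adipocyte line in each.

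Gpd1 (ENSMUSG00000023019, chr15:99717515-99725005, plus strand) measured 129 FPKM in OTD and 296 in YTD, and 49.8 in OAD and 57.7 in YAD. It was the highest of the 8 genes in YTD, at rank 342 of 16538 genes above 0, and the second highest, behind Dgat2, in the other 3 libraries. The OTD value was 2.29-fold below the YTD value (counting interval 2.19 to 2.40), a log2 difference of −1.19. With mitochondrially encoded genes left out this was −0.97, just short of 2-fold, and relative to the adipocyte markers −1.47. In anagen the age difference was smaller, with OAD 1.16-fold below YAD (1.07 to 1.25). Between phases Gpd1 was 5.13-fold lower in YAD than YTD (4.83 to 5.45), on 1295 and 5822 estimated fragments, and 2.59-fold lower in OAD than OTD (2.42 to 2.77).

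Gpd1 is also expressed in skeletal muscle, and its lower value in OTD went with lower muscle markers. Between ages in anagen, 11 of 14 muscle markers were higher in OAD (8 of 14 in TPM, 6 of 14 relative to the adipocyte markers) while Gpd1 was lower. Between phases both were lower in anagen in FPKM as deposited. The log2 differences in young and old mice were −2.34 and −1.36 for Gpd1, beside muscle medians of −3.05 and −2.04. The part of muscle in the Gpd1 values was not tested. Against Adipoq, the adipocyte hormone adiponectin, the Gpd1 ratio was 0.302 in OTD and 1.06 in YTD, and 0.482 in OAD and 0.755 in YAD, so it was lower in the old library of either phase. Adipoq itself was 0.60 higher in OTD than YTD on the log2 scale. The median over the 12 adipocyte markers was 0.28, with 9 higher and 3 lower. Gpd2, the mitochondrial glycerol 3-phosphate dehydrogenase that consumes what Gpd1 makes, had 11.1, 18.9, 3.23 and 2.72 FPKM in OTD, YTD, OAD and YAD. The ratio of Gpd1 to Gpd2 was 11.6 in OTD and 15.6 in YTD. Gpd1l, a paralog of Gpd1, held 9.02%, 4.45%, 8.84% and 8.74% of the summed FPKM of both, and its own values, 12.8 FPKM in OTD against 13.8 in YTD, differed by less than counting error.

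Pck1 (ENSMUSG00000027513, chr2:173153048-173159273, plus strand) had 57.2 FPKM in OTD and 26.9 in YTD, and 16.1 in OAD and 13.9 in YAD. OTD stood apart from the other 3 libraries. The OTD to YTD fold was 2.12 (1.97 to 2.30), a log2 difference of 1.06, which was 0.78 relative to the adipocyte markers and then no longer 2-fold. By FPKM, Pck1 came after Agpat2 in OTD and next to last in YTD. In anagen the fold was 1.16 (1.03 to 1.29), and it turned to a log2 difference of −0.02 in TPM. OAD was 3.55-fold below OTD (3.26 to 3.87) and YAD 1.93-fold below YTD (1.74 to 2.15), and the difference between these folds was not tested.

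The mitochondrial PEPCK, Pck2, measured 7.55, 4.98, 3.15 and 2.31 FPKM in OTD, YTD, OAD and YAD. It was 1.51-fold higher in OTD than YTD (1.26 to 1.82), the same direction as Pck1, and Pck1 held between 83.6% and 88.3% of the summed FPKM of the pair. Pcx, pyruvate carboxylase, which supplies oxaloacetate to PEPCK, had 48.3 FPKM in OTD and 57.3 in YTD and was thus 1.18-fold lower where Pck1 was higher. The Pcx log2 difference, −0.24, ranged from −0.52 to −0.02 over the scalings. Set against Adipoq alone, which was itself 0.60 higher in OTD than YTD on the log2 scale, Pck1 was at 0.134 in OTD and 0.0960 in YTD. It was at 0.156 in OAD and 0.182 in YAD.

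A ratio taken inside a library does not depend on the scaling between libraries. GPD1 also acts in glyceroneogenesis, so the Pck1 to Gpd1 ratio is not a balance between separate routes. The Pck1 to Gpd1 ratio of FPKM was 0.443 in OTD (0.418 to 0.469) and 0.0909 in YTD (0.0848 to 0.0974), and 0.323 in OAD (0.295 to 0.354) and 0.241 in YAD (0.218 to 0.267). No 2 of these intervals overlapped. The ratio was 4.87-fold higher in OTD than YTD and 1.34-fold higher in OAD than YAD, and YTD stood furthest from the rest. Gpd1 made up 40.4% of the summed FPKM of the 8 genes in YTD and 21.7% to 24.8% in the other 3 libraries, and Pck1 made up 3.68% in YTD and 10.99% in OTD.

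**Figure D3:**
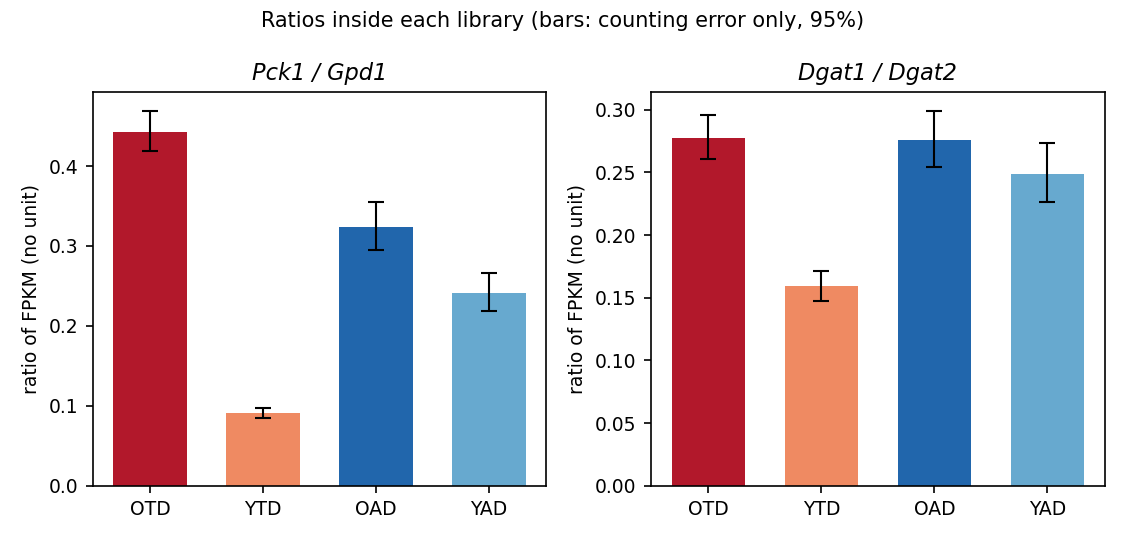
Ratio of FPKM inside each library for Pck1 to Gpd1 (left) and Dgat1 to Dgat2 (right), with 95% counting intervals as error bars and y axes from 0. YTD was the lowest library in both ratios, at 0.0909 and 0.159.

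Aqp7 (ENSMUSG00000028427, chr4:41033074-41048139, minus strand), a channel that passes glycerol across the adipocyte membrane, was the lowest of the 8 in every library. It had 9.08 FPKM in OTD and 9.94 in YTD, and 2.48 in OAD and 1.89 in YAD, on 164, 170, 55 and 37 estimated fragments. Neither age difference was larger than counting error, with an OTD to YTD fold of 0.913 (0.732 to 1.14) and an OAD to YAD fold of 1.32 (0.854 to 2.06). The phases were apart at both ages in FPKM as deposited. YAD was 5.27-fold below YTD (3.66 to 7.70) and OAD 3.65-fold below OTD (2.66 to 5.02). Relative to the adipocyte markers the log2 differences were −0.40 in young and −0.14 in old mice.

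The leading glycerol channel differed between phases. Aqp3, an aquaglyceroporin known from keratinocytes, had 1.97 FPKM in OTD and 3.32 in YTD but 57.0 in OAD and 71.8 in YAD. Aqp7 thus held 80.4% of the summed FPKM of Aqp3, Aqp7 and Aqp9 in OTD and 74.0% in YTD, and 4.11% in OAD and 2.54% in YAD. The keratinocyte markers summed to 51.4 FPKM in OTD and 78.5 in YTD, and 1336 in OAD and 912 in YAD, and their part in the Aqp3 values was not tested. Glycerol kinase (Gk), which phosphorylates glycerol, had 1.06 FPKM in OTD and 0.936 in YTD, and 2.34 in OAD and 1.78 in YAD. It was 1.90-fold higher in YAD than YTD (1.23 to 3.11) and 2.20-fold higher in OAD than OTD.

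Gpam (ENSMUSG00000024978, chr19:55069734-55099451, minus strand) encodes the mitochondrial glycerol 3-phosphate acyltransferase GPAT1, which adds the first acyl chain. It measured 33.3 FPKM in OTD and 53.1 in YTD, and 11.6 in OAD and 12.8 in YAD. The log2 difference of OTD from YTD was −0.66, the largest shortfall after that of Gpd1, and it stayed below 0 under every scaling, from −0.94 to −0.44. In anagen the 2 values were within counting error. Between phases Gpam was 4.15-fold lower in YAD than YTD (3.81 to 4.52) and 2.87-fold lower in OAD than OTD (2.62 to 3.14). Relative to the adipocyte markers these log2 differences were −0.44 and −0.05.

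Gpat4, an acyltransferase of the endoplasmic reticulum, had 18.2 FPKM in OTD and 23.6 in YTD, and 18.2 in OAD and 19.8 in YAD. Gpam held 57.1% and 63.7% of the summed FPKM of the GPAT genes in OTD and YTD, but 34.7% in OAD and 36.5% in YAD, where Gpat4 led with 54.4% and 56.4%. Gpat3, the GPAT isoform known from adipocyte differentiation, had 6.88, 6.72, 3.63 and 2.39 FPKM in OTD, YTD, OAD and YAD. Gpat2 was listed at 0 in both telogen libraries.

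Agpat2 (ENSMUSG00000026922, chr2:26593057-26604332, minus strand), the lysophosphatidate acyltransferase whose loss causes generalised lipodystrophy, had 64.7 FPKM in OTD and 87.8 in YTD, and 38.1 in OAD and 47.0 in YAD. It was lower in the old library of both phases, 1.36-fold in telogen (1.25 to 1.47) and 1.23-fold in anagen (1.12 to 1.36). Both signs held under every scaling, with log2 differences from −0.71 to −0.22 in telogen and from −0.62 to −0.28 in anagen. The phase difference was among the smallest of the 8, 1.87-fold in young (1.71 to 2.04) and 1.70-fold in old mice (1.55 to 1.87). Relative to the adipocyte markers Agpat2 was higher in anagen, by 0.64 in young and 0.65 in old mice on the log2 scale. The Agpat2 to Gpam ratio was 1.94 in OTD and 1.65 in YTD, and 3.28 in OAD and 3.66 in YAD.

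Among the AGPAT genes Agpat2 shared the lead with Agpat3. In the order OTD, YTD, OAD and YAD, Agpat2 held 34.5%, 34.9%, 25.4% and 32.7% of their summed FPKM, and Agpat3 held 35.4%, 32.2%, 44.8% and 36.6%. Agpat1 measured 38.5 FPKM in OTD and 63.5 in YTD and was thus 1.65-fold lower in the former. In the same library order Agpat4 had 7.27, 4.09, 3.68 and 3.17 FPKM and Agpat5 10.7, 15.3, 13.4 and 15.2.

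Lpin1 (ENSMUSG00000020593, chr12:16535669-16589770, minus strand) encodes lipin 1, the main phosphatidate phosphatase of adipose tissue. Its FPKM was 25.7 in OTD and 34.9 in YTD, and 8.47 in OAD and 8.56 in YAD. OTD was 1.36-fold below YTD (1.26 to 1.46), and the anagen libraries were within counting error of each other (0.989, 0.875 to 1.12). YAD was 4.08-fold below YTD (3.69 to 4.50) and OAD 3.04-fold below OTD (2.75 to 3.36). Relative to the adipocyte markers these log2 differences were −0.38 and −0.10. With Gpam, Lpin1 formed the closest pair among the 8 genes.

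Lpin3 showed the opposite pattern between phases, with 2.74 FPKM in OTD and 3.73 in YTD, and 40.2 in OAD and 37.4 in YAD, 14.7-fold higher in OAD than OTD (12.4 to 17.5) and, on the log2 scale, 3.02 higher in YAD than YTD. The summed FPKM of the 3 lipins was 30.3 in OTD and 40.3 in YTD, and 52.4 in OAD and 50.5 in YAD. Lpin1 held 84.9% and 86.6% of it in telogen but 16.2% and 17.0% in anagen. Hair follicle and keratinocyte markers were also far higher in anagen, and their part in the Lpin3 values was not tested. Lpin2 had 1.85 FPKM in OTD and 1.68 in YTD, and 3.72 in OAD and 4.46 in YAD, a log2 difference between phases of 1.03 in young and 0.73 in old mice. Ctdnep1, the phosphatase that dephosphorylates lipin, had 73.8 FPKM in OTD and 144 in YTD, a log2 difference of −0.96, and 58.9 in OAD and 59.2 in YAD. Its regulatory subunit Cnep1r1 had 31.0 and 32.8 FPKM in OTD and YTD against 14.3 and 14.8 in OAD and YAD, and its lower levels in anagen turned to higher ones relative to the adipocyte markers. The lipid phosphatase gene Plpp1 had 59.1 and 65.4 FPKM in OTD and YTD and 20.5 and 17.7 in OAD and YAD, and Plpp3 had 54.2 and 38.5, and 25.0 and 29.6.

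**Figure D4:**
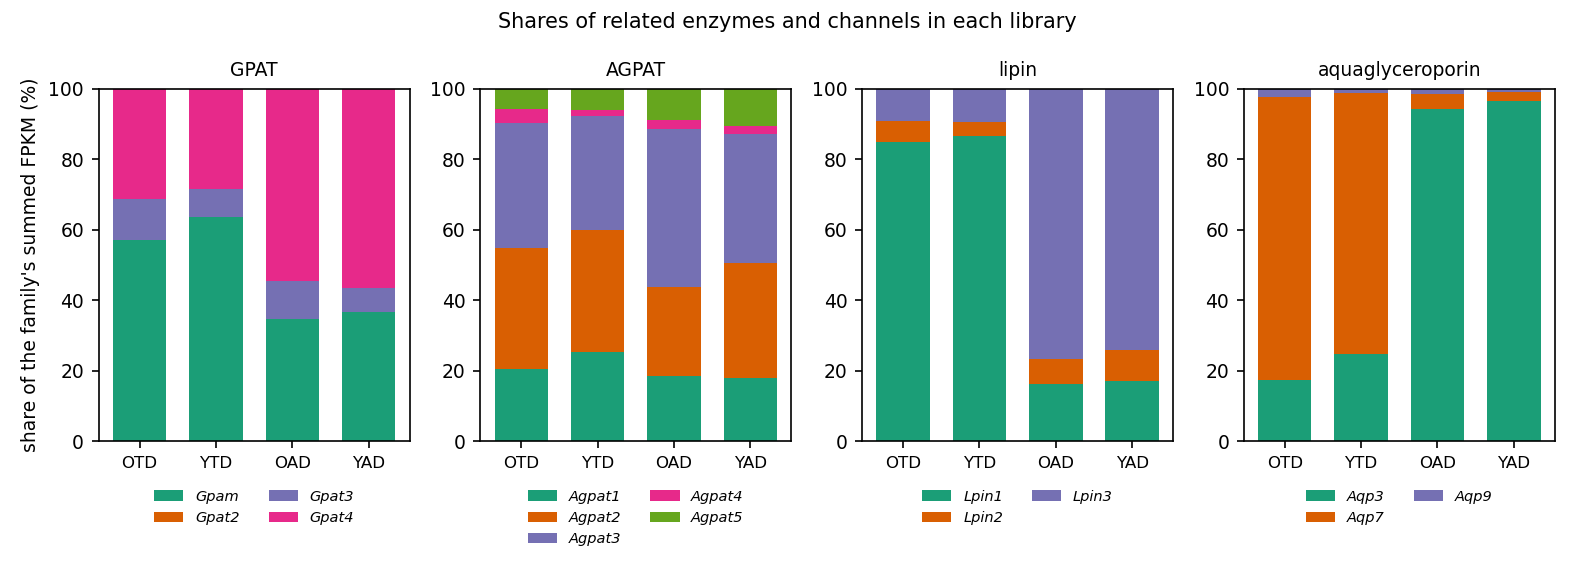
Share of each enzyme or channel in the summed FPKM of its family (%, y axis) in the 4 libraries, for GPAT, AGPAT, lipin and aquaglyceroporin genes. Lpin1 held 84.9% and 86.6% in telogen and 16.2% and 17.0% in anagen, and Aqp7 held 80.4% and 74.0% against 4.11% and 2.54%.

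Dgat1 (ENSMUSG00000022555, chr15:76502015-76511951, minus strand) and Dgat2 (ENSMUSG00000030747, chr7:99153663-99182713, minus strand) encode unrelated enzymes that add the last acyl chain, and they differed in opposite directions with age in telogen. Dgat1 measured 43.7 FPKM in OTD and 30.7 in YTD, and 22.4 in OAD and 18.3 in YAD. Dgat2 measured 157, 193, 81.0 and 73.4 FPKM in the same order. Dgat1 was 1.42-fold higher in OTD than YTD (1.31 to 1.55), while Dgat2 was 1.23-fold lower (1.17 to 1.28). Both signs held under every scaling, with log2 differences from 0.22 to 0.71 for Dgat1 and from −0.57 to −0.07 for Dgat2. The Dgat2 value of −0.07 was that with mitochondrially encoded genes left out. In anagen both were somewhat higher in OAD, Dgat1 1.22-fold (1.10 to 1.36) and Dgat2 1.10-fold (1.04 to 1.17), but both were lower relative to the adipocyte markers, and Dgat2 also in TPM and with mitochondrially encoded genes left out.

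Dgat2 led Dgat1 in every library, and the gap was widest in YTD. The Dgat1 to Dgat2 ratio was 0.278 in OTD (0.261 to 0.296) and 0.159 in YTD (0.148 to 0.171), and 0.276 in OAD (0.254 to 0.299) and 0.249 in YAD (0.227 to 0.274). Only YTD stood apart, and the intervals of the other 3 libraries overlapped. Between phases Dgat2 was 2.63-fold lower in YAD than YTD (2.49 to 2.78) and 1.94-fold lower in OAD than OTD (1.84 to 2.05). Dgat1 was 1.68-fold lower in young (1.51 to 1.87) and 1.96-fold lower in old mice (1.79 to 2.14), and its difference in young mice was 0.09 in TPM. The related acyltransferase gene Mogat1 was low, at 2.28 FPKM in OTD and 0.777 in YTD, on 46 and 15 estimated fragments, an FPKM ratio of 2.94 (1.59 to 5.59). Its relatives Mogat2, Awat1, Awat2 and Dgat2l6 were listed between 0 and 0.670 FPKM.

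**Figure D5:**
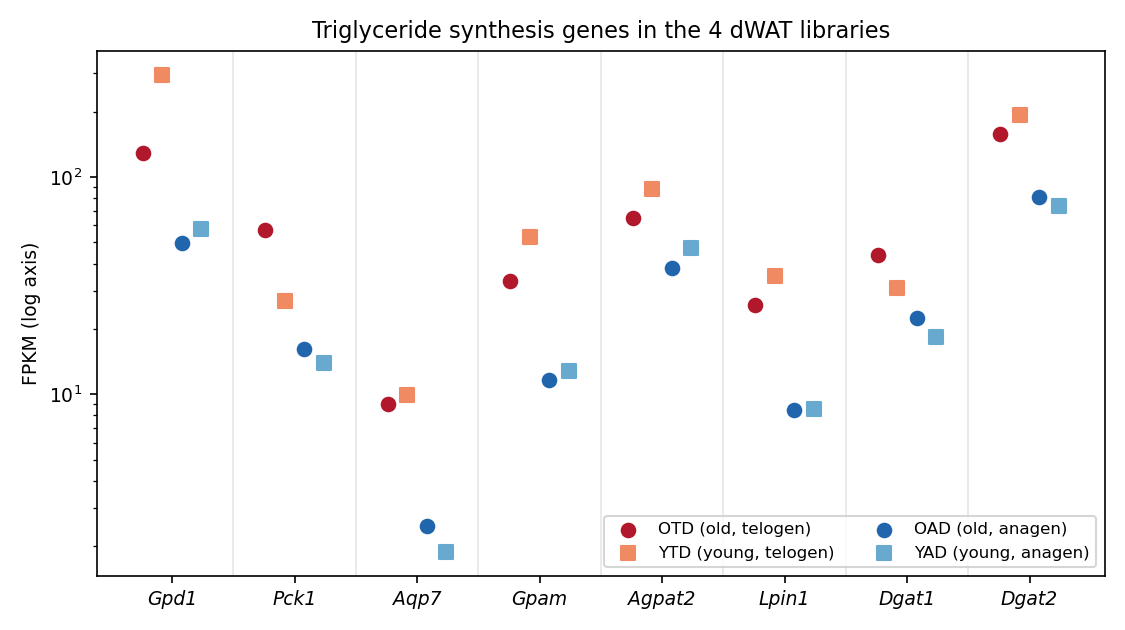
FPKM (log axis) of the 8 genes in the 4 libraries, circles for old and squares for young mice, 1 point per library. In FPKM as deposited all 8 were higher in both telogen libraries than in both anagen libraries, but relative to the adipocyte markers 4 were higher in anagen at each age. Gpd1 had its highest point in YTD, and Pck1 had its highest in OTD.

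The order of the 8 genes by FPKM, which is per length, was the same in the 2 anagen libraries. Dgat2, Gpd1, Agpat2, Dgat1, Pck1, Gpam, Lpin1 and Aqp7 followed each other from high to low in both. In YAD the neighbours Pck1 and Gpam were within counting error, and no other neighbours were, in any library. OTD began with Dgat2, Gpd1, Agpat2 and Pck1, and YTD with Gpd1, Dgat2, Agpat2 and Gpam. The 8 genes summed to 520 FPKM in OTD and 733 in YTD, and 230 in OAD and 234 in YAD.

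A wider list of 38 other genes of glycerolipid synthesis was compared in the same way. None of the 38 was 2-fold apart on the log2(FPKM + 1) scale in either age comparison, against 1.67% of all genes higher and 1.93% lower in telogen and the anagen shares given above. In telogen, however, 3 were 2-fold lower relative to the adipocyte markers, and Mogat1 was 2-fold higher (1.01) with mitochondrially encoded genes left out. In telogen 15 were higher and 22 lower in OTD, and 21 and 16 with mitochondrially encoded genes left out. In anagen OAD was higher for 23 and lower for 14, against 11 and 26 in TPM. Relative to the adipocyte markers these counts were 5 higher and 32 lower in telogen and 4 higher and 33 lower in anagen. Between phases 5 were 2-fold higher and 12 lower in YAD than YTD, and 5 higher and 11 lower in OAD than OTD. Of all genes, 16.1% were 2-fold higher and 16.7% lower in the young comparison and 16.1% and 15.6% in the old one. In TPM the counts of the list were 8 and 4, and 9 and 2. Scaled to the adipocyte markers they were 21 higher and 1 lower in young and 21 higher and 2 lower in old mice. This setting shifts every log2(FPKM + 1) difference by the median of the markers, also for genes near 0. Both counts of 21 thus include Gpat2, Mogat2 and Awat1, which had at most 0.181 FPKM in any library.

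Of the genes of lipid droplet assembly, Fitm1 and Fitm2 were 2-fold lower in anagen at both ages, although Fitm2 in old mice was 0.32 higher relative to the adipocyte markers. Fitm1, a droplet protein known chiefly from skeletal muscle, had 192 FPKM in OTD and 364 in YTD, and 34.8 in OAD and 33.8 in YAD, the highest telogen levels of the list. Fitm2, its widely expressed relative, had 33.9, 48.2, 15.5 and 14.3 FPKM, and Bscl2, seipin, 85.7, 99.0, 72.9 and 62.4. Chpt1, which draws diacylglycerol into phosphatidylcholine, was 5.53-fold lower in YAD than YTD. Pcyt1a, which makes the CDP-choline for the same product, had 27.1 and 36.7 FPKM in OTD and YTD against 11.7 and 12.4 in OAD and YAD, and relative to the adipocyte markers was 0.03 higher in anagen in young and 0.25 higher in old mice on the log2 scale. Pcyt2, its counterpart for ethanolamine, had 17.0 and 28.2 FPKM in telogen and 50.8 and 45.5 in anagen, in the same order. The genes 2-fold higher in anagen at both ages were Aqp3, Lpin3, Plpp2 and Cds1, and Cds1, which turns phosphatidate into CDP-diacylglycerol, had 1.15 and 1.30 FPKM in OTD and YTD against 17.6 and 17.1 in OAD and YAD.

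Genes with the most similar profiles were sought among 11010 genes at 1 FPKM or above in all 4 libraries, by the Euclidean distance between log2(FPKM + 1) profiles centred on their means. The nearest gene was Ip6k3 to Gpd1 (0.10), Colec11 to Pck1 (0.05), Acyp1 to Aqp7 (0.04) and Cystm1 to Gpam (0.06). It was Syt12 to Agpat2 (0.03), Prdx3 to Lpin1 (0.05), Hebp1 to Dgat1 (0.03) and Lactb2 to Dgat2 (0.03). Few genes lay close to Gpd1 and Pck1, with 20 and 24 within a distance of 0.25, against 299 for Dgat2 and 178 for Agpat2. For Gpd1 the next were Dyrk1b and Trim7, and for Pck1 Clca3a1 and Cyp4v3. With 4 libraries a profile has few values, so a small distance is a description only. Among the 8 genes themselves, Gpam and Lpin1 were 0.19 apart and Pck1 and Gpd1 1.70.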

How the data were processed

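The members and gene lists were chosen with earlier results of these data known. Total RNA of microdissected dWAT, with an RNA integrity number above 7.5 by the labels, was sequenced in 4 libraries. The authors deposited FPKM per gene with each gene's position on GRCm38 and the length of its feature, and 97.0% of these lengths are multiples of 3, as coding lengths are. The submitters' processing notes name bcl2fastq, TopHat2 and GRCm38, and the counting tool and annotation are not given in the sources used here. Symbols were matched for 21750 of 22166 Ensembl identifiers.

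Groups were taken from the sample titles. FPKM were used as deposited and compared as differences of log2(FPKM + 1), a scale that shrinks differences of low genes, over genes above 0 in either library. A 2-fold difference was the threshold. Fragments per gene were estimated from a depth read off the lowest FPKM × length among features of 2000 to 4000 bases, a rough estimate. Folds are ratios of FPKM with exact conditional binomial intervals at 95%, which cover counting error only. No test between groups was made.

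All 8 genes are named. From the wider pathway list, the genes named are those past 2-fold, those with the highest FPKM in their step and direct paralogs of the 8. Gk, Bscl2, Lclat1 and Cept1 fall outside this rule and were added after their values were seen. For each of the 8 the nearest profiles were listed, 3 per gene. Of 11 hair follicle markers, 10 were matched. Alternatives were a pseudocount of 0.1, an FPKM minimum of 1, a 1.5-fold threshold, TPM, median of ratios, leaving out mitochondrially encoded genes without or with skeletal muscle markers, and scaling to the adipocyte markers. The last of these subtracted the median difference of the markers from each log2(FPKM + 1) difference, and is not a common factor on FPKM. Only the counting of genes past the 2-fold threshold was tried on simulated data, for the age comparisons. Python 3.11.15, numpy 2.4.6, pandas 2.3.3, scipy 1.17.1 and matplotlib 3.10.9 were used.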

Additional observations from a re-analysis of the deposited data

Results flagged for a closer look

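Of the 8 genes, Dgat2 differed with age in opposite directions in the 2 phases by more than counting error in both, lower in OTD than YTD (−0.29 on the log2 scale) and higher in OAD than YAD (0.14), a gap of −0.43. The difference between the phases was not tested, and the opposite signs held in 2 of 6 scalings. Of the wider list, 8 genes met the same description. The gap, telogen minus anagen, was −0.63 for Agpat3, −0.88 for Lclat1 and 0.71 for Plpp3, whose signs were opposite in 6 of 6 scalings, and 0.51 for Cept1, in 5 of 6. It was −0.43 for Bscl2, in 3 of 6 scalings, and −0.44 for Lpin3, −0.35 for Plpp1 and −0.85 for Pcyt2, in 2 of 6. None of these differences was tested.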

How the results depend on the processing

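No paired analysis was possible because each group is 1 library. Of the 32 differences of the 8 genes, 18 kept their sign under the pseudocount of 0.1 and every scaling: 7 of 8 for age in telogen, 3 of 8 for age in anagen and 4 of 8 in each phase comparison. Median of ratios and the FPKM minimum of 1 moved no median or count of the 8 genes beyond counting error or 1.5 times. Medians below are log2 differences in the order telogen age, anagen age, young phase and old phase, where moved.

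In TPM the median was −0.16 in anagen age, −0.83 in young phase and −0.80 in old phase, with 2 of 8 genes 2-fold lower in old phase. Without mitochondrially encoded genes it was −0.14 in telogen age, where 0 of 8 were 2-fold lower, −1.44 in young phase and −1.57 in old phase. Without skeletal muscle markers as well, it was −0.21 in telogen age and −1.71 in old phase, where 8 of 8 were 2-fold lower. Scaled to the adipocyte markers it was −0.64, −0.27, −0.12 and −0.0036, with 0 genes 2-fold higher in telogen age and 0 lower in either phase comparison. In young phase Agpat2 (0.64), Dgat1 (0.81), Dgat2 (0.14) and Pck1 (0.62) turned positive. In old phase Agpat2 (0.65), Dgat1 (0.46), Dgat2 (0.45) and Gpd1 (0.0403) did. Genes 2-fold apart among all genes then numbered 1109 in telogen age, 13182 in young phase and 12623 in old phase. These counts include genes near 0, since every log2 difference is shifted by the median of the markers.

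With a pseudocount of 0.1, 2144 of all genes were 2-fold apart in telogen age and 1109 in anagen age, against 620 and 208. At a 1.5-fold threshold 2 of 8 genes were lower in telogen age and 8 in each phase comparison, and 2754, 875, 9213 and 9009 of all genes passed. TPM, median of ratios and the settings that leave genes out change only the common factor of a library. The ratios within a library are therefore the same under each. The adipocyte marker setting instead shifts the log2(FPKM + 1) differences between libraries. Depth limits Aqp7 most, with 37 estimated fragments in YAD.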
